A study of Mus musculus with 21 samples.

Results

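A set of 10 blood vessel genes was followed through 21 mouse mammary tumors. They were chosen by symbol, for what each gene is known to do, from the 49652 genes in the count files: Pecam1, Cdh5, Kdr, Flt1, Tek, Eng and Vwf, which mark or act in endothelium, and the secreted factors Vegfa, Vegfc and Angpt2. All 10 had reads in every tumor and passed the filter on low counts, which kept 19315 genes.

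The tumors were sequenced to ask what differs when RhoC, a small GTPase that acts on the actin cytoskeleton and on contractility, is expressed from a transgene in an ErbB2 model of breast cancer. In all 21 tumors Cre from MMTV-CreNLST switched on FloxNeoNeuNT, which places activated Neu under the control of the endogenous ErbB2 gene. The 12 RhoC tumors were R26(RhoC/+);FloxNeoNeuNT;MMTV-CreNLST and were taken from 8 mice, of which mouse P497 gave 4 and mouse N9255 gave 2. The 9 controls came from 9 mice. Of these, 7 were Gata4(loxP/+);FloxNeoNeuNT;MMTV-CreNLST and 2, tumors N-15 and N-17, were FloxNeoNeuNT;MMTV-CreNLST. MMTV directs Cre to mammary epithelium, so the alleles were designed to act in the epithelium and not in the vessels whose RNA is described here.

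Blood vessels are lined by endothelial cells, which respond to VEGF-A from the surrounding tissue through the receptor VEGFR2 and sprout toward it. VEGFR1 binds the same ligand and can hold it away from VEGFR2. Angiopoietin-2 is stored in endothelial cells and competes with angiopoietin-1 for the receptor TIE2, loosening the vessel wall, and VEGF-C acts mainly on lymphatic vessels. Cells that run short of oxygen stabilise hypoxia inducible factors, and Vegfa is among their classic targets.

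Total counts ranged from 47552423 to 100741339 reads in control tumors and from 47309780 to 85326903 in RhoC tumors, so even the lowest gene, Vegfc, had at least 41 reads in every tumor. Levels are given as CPM, the reads of a gene scaled by library total and by TMM. Rhoc itself lay between 25.98 and 172 CPM in controls (median 50.7) and between 22.8 and 148 CPM in RhoC tumors (median 88.2). The cohorts overlapped and the difference was not called by edgeR's quasi-likelihood test (adjusted p = 0.774), so the cohort names below rest on the labels. Epithelial markers were present in every tumor, at a summed 1180 to 17420 CPM over 8 genes. Some libraries stood apart. Control tumor N-17 held 6209 CPM of 7 skeletal muscle genes, against at most 746.7 CPM in any other tumor, and 1116 CPM of 8 adipocyte genes, against at most 232.5 CPM elsewhere. Control N-9 was the lowest of the 21 for 8 fibroblast genes (326 CPM, the next at 998), 10 leukocyte genes (149 CPM, the next at 230) and 11 pericyte genes (421 CPM, the next at 463). RhoC tumors R-6 and R-13 held 17420 and 14630 CPM of the epithelial genes, against at most 7710 CPM elsewhere. Values without these tumors are given beside some of the results they moved.

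The promoters of the receptor genes Kdr and Tek are shown because their RNA levels moved together across mice, that of Flt1 because it had the smallest p between the cohorts, and that of Vegfa as the gene of the ligand that VEGFR1 and VEGFR2 share. Each run holds the 250 bases before the RefSeq start on GRCm38.p6, written on the strand of the gene. They lie at chr5:75978456-75978705 (minus strand) for Kdr, chr5:147726012-147726261 (minus) for Flt1, chr4:94739039-94739288 (plus) for Tek and chr17:46032378-46032627 (minus) for Vegfa. Capitals mark matches, on either strand, to CAGGAA, 1 form of the sequences bound by ETS factors, or to ACGTG, the core of the hypoxia response element.
Kdr: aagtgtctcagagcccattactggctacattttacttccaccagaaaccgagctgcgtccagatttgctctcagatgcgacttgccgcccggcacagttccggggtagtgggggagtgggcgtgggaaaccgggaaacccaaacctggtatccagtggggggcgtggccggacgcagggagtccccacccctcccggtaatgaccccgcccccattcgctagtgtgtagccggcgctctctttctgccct
Flt1: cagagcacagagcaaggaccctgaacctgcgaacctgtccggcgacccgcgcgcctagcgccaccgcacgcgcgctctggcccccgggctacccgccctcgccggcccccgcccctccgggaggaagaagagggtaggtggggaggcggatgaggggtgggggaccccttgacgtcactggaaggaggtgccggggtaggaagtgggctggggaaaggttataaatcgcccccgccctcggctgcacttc
Tek: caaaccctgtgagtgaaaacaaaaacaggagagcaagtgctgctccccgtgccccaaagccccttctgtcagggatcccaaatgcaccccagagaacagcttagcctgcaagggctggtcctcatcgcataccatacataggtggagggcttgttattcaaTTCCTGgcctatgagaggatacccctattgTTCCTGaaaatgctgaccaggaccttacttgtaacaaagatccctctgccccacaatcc
Vegfa: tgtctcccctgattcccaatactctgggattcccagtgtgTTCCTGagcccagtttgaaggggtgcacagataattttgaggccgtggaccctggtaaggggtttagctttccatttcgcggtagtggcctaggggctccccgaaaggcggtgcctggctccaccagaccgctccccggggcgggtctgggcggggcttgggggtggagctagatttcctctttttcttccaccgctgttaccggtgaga
Tek had 2 matches to CAGGAA, at bases -89 to -84 and -59 to -54 counted from the start, and Vegfa had 1, at bases -210 to -205. Windows of Kdr and Flt1 held neither CAGGAA nor ACGTG. Both hold the shorter run GGAA, which was not searched for, so other forms of ETS sites were not assessed. RefSeq gives Vegfa another start, whose window at chr17:46025164-46025413 (minus) is not printed here. It held 1 match to ACGTG, at bases -211 to -207, and none to CAGGAA. This window lies inside the Vegfa gene (chr17:46016993-46032369), so its match is not in the sequence before the gene. The bases after this start were not found near the start of any GENCODE transcript of Vegfa. Among 32851 RefSeq promoters, 25.7% held CAGGAA and 16.6% held ACGTG in the same window. Of the 10 genes, 6 had at least 1 RefSeq promoter here, and those of Eng and Vegfc held neither motif. A match of this kind describes letters in the window and not a site in use.

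Levels of different genes were compared as FPKM, which divides by gene length. Vegfa was the highest of the 10, with a median of 30.7 FPKM over the 21 tumors and a range of 9.75 to 109.7. It was followed by the junction genes Cdh5 (median 19.4 FPKM) and Pecam1 (14.3), then by Eng (9.46), Kdr (6.83) and Flt1 (6.50). Angpt2 (2.72), Vwf (2.40), Vegfc (2.37) and Tek (1.45) were lowest. Neighbours in this order were compared within mice by an exact sign-flip test over 17 mice, adjusted over the 9 neighbouring pairs. The order was taken from the same tumors, so these p-values describe it and do not test a ranking set beforehand. Vegfa was above Cdh5 (adjusted p = 0.0259), Cdh5 above Pecam1 and Pecam1 above Eng (both 8.24e-04), Flt1 above Angpt2 (0.00147) and Vwf above Vegfc (0.0259). Vwf was the higher of that pair in 12 of 21 tumors and 12 of 17 mice. Eng and Kdr (0.130), Kdr and Flt1 (0.328), Angpt2 and Vwf (0.841) and Vegfc and Tek (0.703) did not pass.

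The junction genes varied by 6.91-fold (Pecam1) and 6.02-fold (Cdh5) between the lowest and highest tumor. Pecam1, which encodes CD31, an adhesion molecule at endothelial contacts that platelets and leukocytes also carry, ranged from 25.6 to 177 CPM in controls (median 53.8) and from 40.2 to 141 CPM in RhoC tumors (median 61.8). Cdh5, which encodes VE-cadherin of the endothelial adherens junction, ranged from 36.6 to 220.4 CPM in controls (median 81.4) and from 42.1 to 183 CPM in RhoC tumors (median 78.0). For both genes control tumor N-9 was the lowest and N-17 the highest of all 21, and R-10 was the highest RhoC tumor, so the RhoC range lay inside the control range. In bulk tissue, fewer endothelial cells and less RNA per endothelial cell cannot be told apart.

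Among the receptors, Kdr, which encodes VEGFR2, ranged from 18.1 to 232 CPM in controls (median 40.5) and from 23.5 to 77.1 CPM in RhoC tumors (median 41.2). The medians were nearly equal, and N-17 alone lay above 77.1 CPM. Flt1, which encodes VEGFR1, ranged from 44.2 to 233 CPM in controls (median 90.7) and from 32.3 to 107 CPM in RhoC tumors (median 71.1). N-8, at 233 CPM, was the highest tumor for Flt1 although its Cdh5 (81.4 CPM) was the control median, and 4 of the 9 controls lay above every RhoC tumor. Tek, which encodes TIE2, had the widest spread, from 1.03 CPM in N-9 to 34.0 CPM in N-17, a 33.1-fold range. Its control median was 6.80 CPM and its RhoC median 6.78 CPM, with RhoC tumors between 2.87 and 18.5 CPM.

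Eng, which encodes endoglin, a co-receptor for ligands of the TGF-beta and BMP family, ranged from 13.2 to 104.8 CPM in controls (median 34.9) and from 32.4 to 91.8 CPM in RhoC tumors (median 38.6). Controls N-1, N-4, N-8 and N-9 lay below every RhoC tumor, at 16.5, 19.2, 32.1 and 13.2 CPM, although N-8 did so by a narrow margin. Vwf, which encodes the von Willebrand factor held in endothelial granules and in platelets, ranged from 11.1 to 81.2 CPM in controls (median 30.2) and from 6.07 to 128 CPM in RhoC tumors (median 24.5). It was highest in R-1 (128 CPM) and R-2 (107.9 CPM), which were unremarkable for Pecam1 (63.1 and 55.7 CPM).

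Vegfa, the main ligand of VEGFR2, ranged from 60.0 to 321 CPM in controls (median 179) and from 34.7 to 390 CPM in RhoC tumors (median 81.6). Of the 12 RhoC tumors, 8 lay at 105 CPM or below and the other 4 (R-6, R-12, R-13 and R-14) between 195 and 390 CPM. Angpt2, the angiopoietin that competes for TIE2, ranged from 3.64 to 20.2 CPM in controls (median 14.9) and from 2.90 to 31.2 CPM in RhoC tumors (median 7.52). R-12 was the highest of all tumors for both genes, R-2 the lowest. Vegfc, the lymphatic growth factor, ranged from 0.555 to 9.71 CPM in controls (median 3.61) and from 0.961 to 15.8 CPM in RhoC tumors (median 5.98), again with R-12 highest. N-9, which had the least Vegfc and the least Pecam1, Cdh5, Kdr, Tek and Eng, had 309 CPM of Vegfa and 19.9 CPM of Angpt2, both near the top of the controls. It was also the tumor with the least fibroblast, leukocyte and pericyte RNA, as given above, and the part of tissue composition in its low values was not tested.

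**Figure D1:**
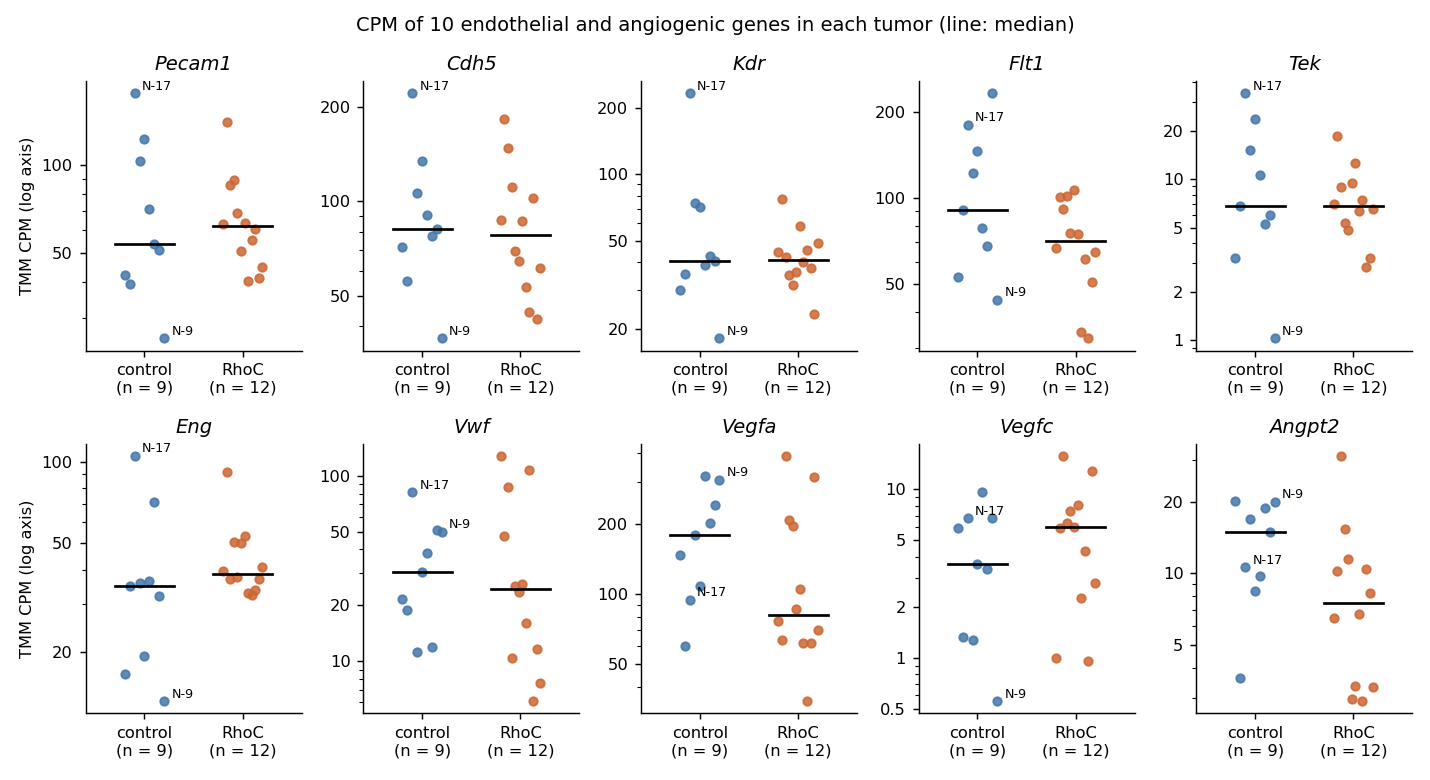
TMM-scaled CPM on log axes for each of the 10 genes, with 1 point per tumor, 9 control (blue) and 12 RhoC (orange), and a line at the median of each cohort. The cohorts overlap for every gene, N-17 is the highest tumor for Pecam1, Cdh5, Kdr, Tek and Eng, and N-9 is the lowest for those 5 genes and for Vegfc.

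None of the 10 genes differed between the cohorts by edgeR's quasi-likelihood test at an adjusted p under 0.05, against 43 of 19315 genes in all (0.223%), and none did by DESeq2, against 6.24% of all tested genes. At an unadjusted p under 0.05, 1 of the 10 passed by edgeR and 1 by DESeq2, in both cases Flt1, against 20.5% and 23.1% of all tested genes. That 1 of 10 is below the background share. On average 7 genes were lower, against 50.4% of all tested genes, and 3 (Vegfc, Vwf and Eng) higher in RhoC tumors, with a median log2 fold change of -0.30 beside -0.005 over all tested genes. Without N-17, 0 of the 10 were called, 0 had an unadjusted p under 0.05 in edgeR, and 5 were lower on average. Without N-9, 0 of the 10 were called, Flt1 stood at -0.76 (edgeR unadjusted p = 0.00984, adjusted p = 0.166) and Kdr at -0.70 (unadjusted p = 0.0415, adjusted p = 0.255).

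Flt1 had the smallest p, with 113 ± 63.4 CPM (SD, n = 9) in controls and 71.8 ± 25.2 CPM (n = 12) in RhoC tumors. Its log2 fold change was -0.65 (SE 0.28, 95% interval -1.24 to -0.07), which is 0.635-fold with an interval of 0.424 to 0.953. The adjusted p was 0.201 by edgeR and 0.158 by DESeq2, and an exact permutation test of the tumor labels over 293930 labelings gave an unadjusted p of 0.0852 (2-sided). Without N-8 the log2 fold change was -0.45.

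The other receptors were lower on average and did not pass. On the log2 scale Tek differed by -0.60 (SE 0.45) and Kdr by -0.58 (SE 0.34), with adjusted p of 0.459 and 0.339. Both turned on N-17, without which Kdr stood at -0.015 and Tek at -0.21. They were also smaller on a log scale, at -0.20 for Kdr and -0.13 for Tek by limma voom with mouse as a random effect, and at -0.23 and -0.17 in mean log2 CPM. Among the ligands, Angpt2 was lower by log2 fold change -0.54 (SE 0.40, adjusted p = 0.448) and Vegfa by -0.41 (SE 0.41, adjusted p = 0.582), and 8 of 9 controls exceeded the RhoC median for each. Vegfc stood at 0.49 (SE 0.51, adjusted p = 0.601). These values moved with R-12, the highest tumor for each ligand. Without it Angpt2 stood at -0.89 (edgeR unadjusted p = 0.0189, adjusted p = 0.157), Vegfa at -0.67 and Vegfc at 0.27. Without control N-6 Vegfa stood at -0.27 and Vegfc at 0.72, and with R-6, R-13 and R-14, which are listed as squamous cell carcinomas, left out they stood at -0.81 and 0.26. By voom Vegfa stood at -0.71, Angpt2 at -0.77 and Vegfc at 0.35. In mean log2 CPM Angpt2 stood at -0.75 (exact permutation p = 0.0926, unadjusted) and Vegfa at -0.61. For Angpt2, 10 of 12 RhoC tumors lay below the control median. Pecam1 (-0.19, SE 0.30), Cdh5 (-0.15, SE 0.30), Eng (0.15, SE 0.31) and Vwf (0.25, SE 0.54) had adjusted p between 0.751 and 0.820, and without N-17 Pecam1 and Cdh5 turned positive, at 0.08 and 0.10, while Eng stood at 0.47 and Vwf at 0.51. By voom Pecam1 stood at -0.02, Cdh5 at -0.09, Eng at 0.35 and Vwf at -0.02. The 95% intervals still allow sizeable differences, for example 0.571-fold to 1.36-fold for Pecam1 and 0.672-fold to 2.95-fold for Vegfc.

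**Figure D2:**
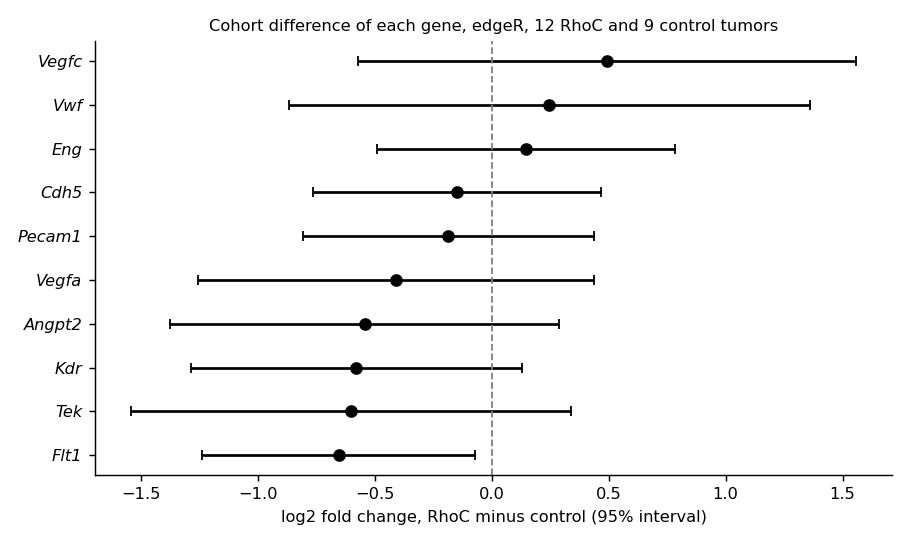
Log2 fold change of each gene, RhoC minus control, from edgeR with 12 RhoC and 9 control tumors, with bars for the 95% interval. The interval of Flt1 (-1.24 to -0.07) lies below 0 and those of the other 9 genes cross 0, and none passed adjustment over all tested genes.

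To ask whether a gene differed relative to the endothelial RNA of its own tumor, each of the other 8 genes was set against the mean of Pecam1 and Cdh5 on the log2 scale. None of the 8 ratios differed between cohorts by an exact permutation test adjusted over the 8. The log2 ratio of Flt1 was 0.40 ± 0.64 (SD, n = 9) in controls and -0.07 ± 0.56 (n = 12) in RhoC tumors, a difference of -0.48 (exact permutation p = 0.0848, adjusted p = 0.400). That of Eng was 0.45 higher in RhoC tumors (exact permutation p = 0.115, adjusted p = 0.400), with 10 of 12 RhoC tumors above the control median. That of Angpt2 was 0.68 lower at -3.28 against -2.60 (exact permutation p = 0.150, adjusted p = 0.400), with 9 of 12 below it. That of Vegfc was 0.59 higher (exact permutation p = 0.302, adjusted p = 0.524), with 10 of 12 above the control median, and that of Vegfa differed by -0.54 (exact permutation p = 0.327, adjusted p = 0.524), with 9 of 12 below it. Single controls moved these differences, which were -0.29 for Flt1 without N-8, 0.25 for Eng without N-4 and -0.43 for Angpt2 and -0.26 for Vegfa without N-9. Without N-17 that of Vegfa was -0.81 (exact permutation p = 0.131) and that of Angpt2 -0.88 (exact permutation p = 0.0641, adjusted p = 0.256). Leaving out N-7 gave 0.61 for Eng (exact permutation p = 0.0194, adjusted p = 0.155). Flt1 stood at -0.56 without R-15 (exact permutation p = 0.0301, adjusted p = 0.241). Averaged per mouse, Flt1 stood at -0.65 (exact permutation p = 0.0344, adjusted p = 0.275). For Vegfc the difference was 0.37 without N-3, 0.805 without R-21 and 0.26 when averaged per mouse. Differences for Kdr (-0.16), Tek (-0.10) and Vwf (-0.09) had exact permutation p of 0.428, 0.759 and 0.884 (adjusted p = 0.571, 0.868 and 0.884). The SD of these ratios over all 21 tumors was 0.44, 0.72 and 1.30, and the difference for Kdr was -0.05 without N-17.

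Across mice Pecam1, Cdh5, Kdr and Tek moved together, Flt1 less closely, while Eng and Vwf passed with none of the other genes by both measures used. No relation of Vegfa, Vegfc or Angpt2 with the 7 endothelial genes passed. Correlations were taken over 17 mice, using the mean log2 CPM of a mouse's tumors, for all 45 pairs, with permutation p from 100000 resamples. In 10 pairs both Pearson's r and Spearman's rho passed adjustment over the 45. Of these, 9 lay among the 10 pairs of Pecam1, Cdh5, Kdr, Flt1 and Tek. Pecam1 and Cdh5 were closest, with r = 0.92 and rho = 0.89 (permutation adjusted p 1.12e-04 and 6.75e-04), and r was 0.97 within the control mice and 0.89 within the RhoC mice. Pecam1 with Tek (r = 0.90, rho = 0.85) and Kdr with Tek (r = 0.88, rho = 0.81) followed, and leaving out the 2 mice farthest from the median left r at 0.82 and 0.86. These were the mice of N-9 and N-17.

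Some of the passes in this block turned on N-17. Without its mouse, P7972, 5 of the 45 pairs passed by both measures. None of them held Flt1. They were Pecam1 with Cdh5 (r = 0.90), Kdr (0.91) and Tek (0.87), Kdr with Tek (0.92), and Vegfa with Angpt2 (0.75). Cdh5 with Kdr and with Tek no longer passed, though r stayed at 0.73 and 0.68. Flt1 with Tek, Pecam1 and Kdr stood at 0.62, 0.52 and 0.52. Flt1 was the loosest of the receptors. Its r was 0.61 with Pecam1 and 0.61 with Kdr over 17 mice, but 0.46 (permutation p = 0.0833) and 0.47 (p = 0.0807) once the 2 farthest mice were left out, so those relations rest on these mice. Flt1 with Tek (r = 0.69, rho = 0.73) rose to r = 0.82 without its 2 farthest mice. Eng passed by r alone with Pecam1 (0.60), Kdr (0.67) and Tek (0.59), and its rho of 0.54, 0.47 and 0.43 did not pass. Vwf (r from -0.015 to 0.36) and Vegfc (0.13 to 0.45) passed with none of the other genes.

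Vegfa had r between -0.26 and 0.23 with Pecam1, Cdh5, Kdr, Flt1 and Tek, and none of these relations passed. The gene that Vegfa did follow was Angpt2, with r = 0.75 and rho = 0.67 over 17 mice (permutation adjusted p = 0.00501 and 0.0253). Within cohorts r was 0.69 in control and 0.71 in RhoC mice, while rho was 0.40 and 0.26. Without the 2 mice farthest in Vegfa (those of R-2 and R-12) r was 0.58 (permutation p = 0.0251). Angpt2, of which endothelium is the usual source, had r between -0.15 and 0.34 with Pecam1, Cdh5, Kdr, Flt1 and Tek. With Cdh5 r was 0.79 and rho 0.83 within the 8 RhoC mice, against -0.13 and -0.38 within the 9 control mice, and with Pecam1 r was 0.50 and -0.16. The difference between cohorts in these values was not tested.

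**Figure D3:**
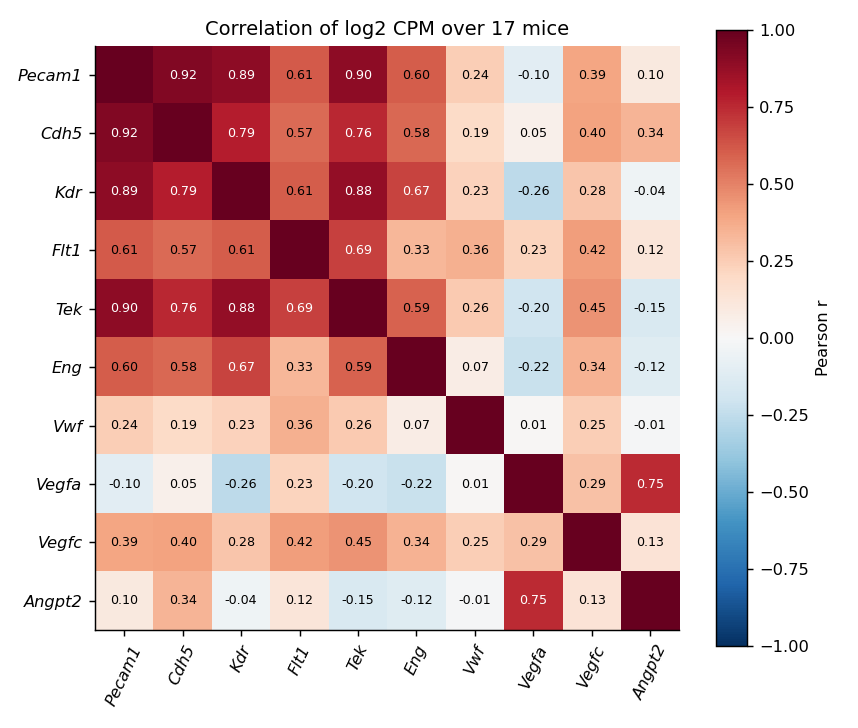
Pearson's r of log2 CPM between the 10 genes over 17 mice, 9 control and 8 RhoC, on a colour scale from -1 (blue) to 1 (red). Pecam1, Cdh5, Kdr and Tek form the strongest block (r from 0.76 to 0.92), Flt1 and Eng join it more loosely, and Vegfa pairs with Angpt2 at 0.75.

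**Figure D4:**
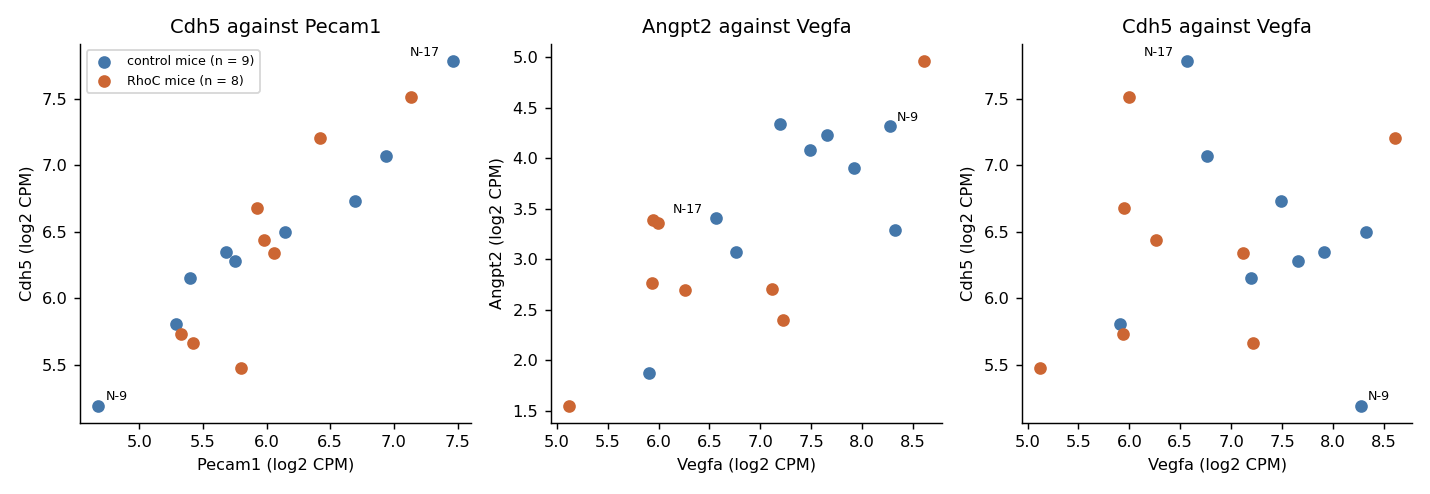
Log2 CPM per mouse for 3 pairs of genes, with control mice (n = 9) in blue and RhoC mice (n = 8) in orange. Cdh5 follows Pecam1 (r = 0.92) and Angpt2 follows Vegfa (r = 0.75), while Cdh5 against Vegfa gives r = 0.05, with N-17 and N-9 at opposite corners.

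The genes whose pattern was most like the mean of Pecam1, Cdh5, Kdr and Tek were found by Spearman's rho over the 17 mice among 15442 genes, as a description without a test. They were Ebf3 (0.953), Gypc (0.934), Myct1 (0.931), Klhl4 (0.926), Adgrl4 (0.922), Ednrb (0.912), Emcn (0.909), Fzd4 (0.904), Adcy4 (0.900) and Mmrn2 (0.897). Emcn, a sialomucin of the endothelial surface, and Mmrn2, a matrix protein deposited by endothelium, belonged to a list of 22 other endothelial genes whose median rho was 0.761, beside -0.015 over all ranked genes. All 22 had reads in every tumor. Other tissue lists also followed this mean, with a median rho of 0.662 for 8 fibroblast genes, 0.598 for 3 adipocyte genes and 0.38 for 9 leukocyte genes, while 8 epithelial genes stood at -0.206. The part of tissue composition in the shared movement was not tested.

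Vegfa instead ranked with targets of hypoxia inducible factors. Of its 10 nearest genes among 15445, 4 were on the hypoxia list: Ankrd37 (rho = 0.919), Bnip3 (0.865), Adm (0.863) and Ero1l (0.814), which encode an ankyrin repeat protein, a mitophagy receptor, the vasodilator peptide adrenomedullin and an oxidase of disulfide formation. The others were Usf2 (0.890), Arih2 (0.863), Kdm3a (0.838), Tpt1 (0.826), Gm11408 (0.809) and Rlf (0.801). For Angpt2, Ankrd37 was again first (0.814), followed by Scaf4 (0.811), Dmtf1 (0.801) and Glt1d1 (0.799). Vegfc had other neighbours, led by Cdh10 (0.875), Ackr2 (0.863) and Sema3e (0.843).

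All 16 genes of the hypoxia list were then correlated with Vegfa, with Angpt2 and with the mean of the 4 endothelial genes, which made 48 relations adjusted together. This test was added after the neighbours had been seen and is not independent of them. With Vegfa, 15 of 16 had a positive r (median 0.62) and 9 passed by both measures: Ankrd37, Bnip3, Adm, Ero1l, Ndrg1, Slc2a1, Car9, Mxi1 and Pgk1. Ankrd37 had r = 0.89 over 17 mice (permutation adjusted p = 2.4e-04), and r = 0.84 within control and 0.88 within RhoC mice. For Slc2a1, the glucose transporter GLUT1, r was 0.72 (permutation adjusted p = 0.00546) and rho 0.69. Pgk1, Car9 and Mxi1 rested on the 2 mice farthest in Vegfa, without which their r was 0.35, 0.51 and 0.42 (permutation p = 0.210, 0.0538 and 0.115). The median r of the list with Vegfa was 0.55 in control and 0.81 in RhoC mice. Its median rho over the 17 mice was 0.62, beside -0.01 over all ranked genes. The share of all genes that would pass was not counted.

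With Angpt2, 3 of the 16 passed by both measures, Ankrd37 (r = 0.83), Adm (0.71) and Pdk1 (0.65), and the median r was 0.48. The median rho of the list with Angpt2 was 0.32, beside -0.015 over all ranked genes. With the mean of Pecam1, Cdh5, Kdr and Tek, 0 of the 16 passed, 6 had a positive r and the median was -0.02. Summed over the list, hypoxia genes ranged from 1949 to 4737 CPM in controls (median 2654) and from 988 to 5864 CPM in RhoC tumors (median 2203), lowest in R-2, the tumor with the least Vegfa and Angpt2.

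None of the genes on 14 other lists was called between the cohorts, so they are described by how many had an unadjusted p under 0.05 in edgeR, against 10.5% of all tested genes higher and 9.93% lower in RhoC tumors. Of 22 other endothelial genes, 0 were higher and 1 lower, and the list had a median of -0.16 in log2 fold change. The 1 was Fli1, an ETS factor of endothelium and blood, at 39.9 ± 27.2 CPM in controls and 21.3 ± 10.5 CPM in RhoC tumors (log2 fold change -0.91, adjusted p = 0.159). Its relative Erg stood at -0.66 (adjusted p = 0.248), while Sox18 (0.45) and Esam (0.28) were higher on average and did not pass at an unadjusted p under 0.05. The list moved with N-17. Without that tumor, an alternative chosen after seeing the data, 5 of the 22 were higher and 1 lower at an unadjusted p under 0.05, against 10.7% of all tested genes higher and 9.84% lower, the median was 0.29, and Sox18 stood at 0.91 and Esam at 0.73 with none of the 22 called.

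Of 14 other genes of the VEGF and angiopoietin pathway, 1 was higher and 2 lower, with a median of 0.20. Nrp2, a co-receptor for VEGF-C and semaphorins, was at 90.5 ± 48.0 CPM in controls and 201 ± 191 CPM in RhoC tumors (log2 fold change 1.15, adjusted p = 0.212). R-13 held the most Nrp2, 571.7 CPM, and without it the log2 fold change was 0.89 (edgeR unadjusted p = 0.0819). The ligands Pgf and Vegfd were lower on average. Pgf, placental growth factor and a ligand of VEGFR1, was at 159 ± 158 CPM in controls and 58.8 ± 59.2 CPM in RhoC tumors (log2 fold change -1.44, adjusted p = 0.207). Vegfd, like Vegfc a lymphatic factor, was at 8.94 ± 14.1 and 2.17 ± 2.91 CPM (log2 fold change -2.04, adjusted p = 0.164). N-17 held the most Vegfd, 44.97 CPM, and without it the log2 fold change was -1.03. Without N-17, 4 of the 14 were higher and 1 lower at an unadjusted p under 0.05.

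Of 11 tip cell genes, which mark sprouting endothelium, 1 was higher (Lamb1, log2 fold change 0.96) and 1 lower (Kcne3, -2.13), and Esm1, which VEGF induces in tip cells, stood at -0.94 (adjusted p = 0.250). For Kcne3 the medians were close, at 6.40 CPM in controls and 5.78 CPM in RhoC tumors, and control N-6 alone held 254 CPM, without which its log2 fold change was -0.77. Esm1 stood at -0.59 without N-3, and Lamb1 at 0.75 without R-13 (edgeR unadjusted p = 0.0548). Without N-17, 3 of the 11 were higher and 2 lower. Of 6 lymphatic genes tested, 2 were higher. They were Pdpn (log2 fold change 2.26, adjusted p = 0.128), which basal epithelium and fibroblasts also express, and Reln (2.18, adjusted p = 0.238), whereas Lyve1 (-0.99) and Mmrn1 (-1.35) were lower on average and did not pass at an unadjusted p under 0.05. Reln stood at 1.34 without R-16, Lyve1 at -0.30 without N-3 and Mmrn1 at -0.74 without N-4. Without N-17, 3 of the 6 were higher and 0 lower, and the list's median log2 fold change went from 0.44 to 0.63. Of 11 pericyte genes, the cells that wrap capillaries, 2 were higher, Cspg4 (0.98, adjusted p = 0.160) and Mcam (0.75, adjusted p = 0.174), while Rgs5 stood at -0.66 (adjusted p = 0.285), or -0.39 without N-4. Without N-17 the pericyte list still had 2 higher, and its median went from 0.03 to 0.42. Of 11 angiogenesis inhibitors, 3 were higher and 2 lower, with Thbs2 at 0.91 (adjusted p = 0.229) and Adamts1 at -1.06 (adjusted p = 0.224). Without N-17, 2 inhibitors were higher and 0 lower, and edgeR's unadjusted p was 0.0522 for Adamts1 (-1.05) and 0.0555 for Thbs2 (0.92). Of 16 hypoxia genes, 0 were higher and 3 lower, led by Pdk1 (-0.82, adjusted p = 0.129) and Ndrg1 (-1.13, adjusted p = 0.160). Without N-3 Pdk1 stood at -0.53, and without N-17, 2 hypoxia genes were lower.

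The remaining lists mark other cells in the tissue. Among leukocyte (9 tested), red blood cell (3), epithelial (8) and skeletal muscle genes (4), 0 had an unadjusted p under 0.05 in either direction, and 1 of 8 fibroblast genes (Dcn, -1.57) and 1 of 3 adipocyte genes (Plin4, -3.32) were lower. Plin4 rested on N-17, which held 313.6 CPM of it against a control median of 1.63, and without that tumor its log2 fold change was 1.36. Without N-17, 0 fibroblast genes were lower and 1 higher (Col1a1, 1.18), with Dcn at -1.31 (edgeR unadjusted p = 0.0543), and 0 adipocyte genes were lower. With N-17 kept and R-13 left out, Col1a1 stood at 0.63 (edgeR unadjusted p = 0.155). Of 3 genes listed for platelets, 1 was higher, the chemokine gene Ppbp (log2 fold change 3.70, adjusted p = 0.117, or 2.44 without R-6). Ppbp was at 343.9, 128 and 66.3 CPM in R-6, R-14 and R-13. In those tumors Pf4 was between 1.45 and 5.62 CPM and Itga2b between 1.20 and 1.63 CPM, and neither passed at an unadjusted p under 0.05 (-0.39 and -0.28), so of the 3 genes the higher level was in Ppbp alone.

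The study lists a pathology for 18 of the tumors, and it is used here as a description because the sample labels do not give it. Vegfa was at 195, 208 and 315 CPM in the 3 squamous cell carcinomas (R-14, R-13 and R-6), which held 7.40, 6.35 and 12.8 CPM of Vegfc, each above the RhoC median of 5.98 CPM. Their Tek was between 3.25 and 5.33 CPM and their Kdr between 23.5 and 35.2 CPM, below the RhoC medians of 6.78 and 41.2 CPM. Other endothelial genes were not low in all 3. R-13 and R-14 lay above the RhoC medians for Pecam1 (89.0 and 68.7 CPM) and Flt1 (101.7 and 75.7 CPM), and R-13 also for Cdh5 (110.6 CPM) and Eng (50.4 CPM). The 5 complex adenocarcinomas, 4 of them RhoC tumors, had median Pecam1 of 85.8, Cdh5 of 134, Kdr of 58.3 and Tek of 12.5 CPM, above the medians of the other pathologies with 3 or more tumors, and ranged from 61.2 to 183 CPM in Cdh5. Their median Flt1 of 91.3 CPM was below the 106.6 CPM of the poorly differentiated adenocarcinomas, and their median Vwf of 30.2 CPM below the 49.8 CPM of the solid nodular carcinomas. In the 4 poorly differentiated adenocarcinomas, all controls, median Cdh5 was 86.0 CPM and median Vegfa 210.4 CPM. In the 3 solid nodular carcinomas, N-7, N-9 and R-1, they were 77.7 and 201 CPM. The 3 squamous cell carcinomas were all RhoC tumors, from mice P497 (R-13 and R-14) and N9255 (R-6). The complex adenocarcinomas R-16 and R-7 came from the same mice. All 4 poorly differentiated adenocarcinomas were controls. RhoC tumors R-2 (listed as poorly differentiated adenocarcinoma and adenomyoepithelioma) and R-15 (solid nodular carcinoma or poorly differentiated adenocarcinoma) were kept out of these groups. For the squamous and poorly differentiated groups the parts of pathology and cohort cannot be told apart.

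**Figure D5:**
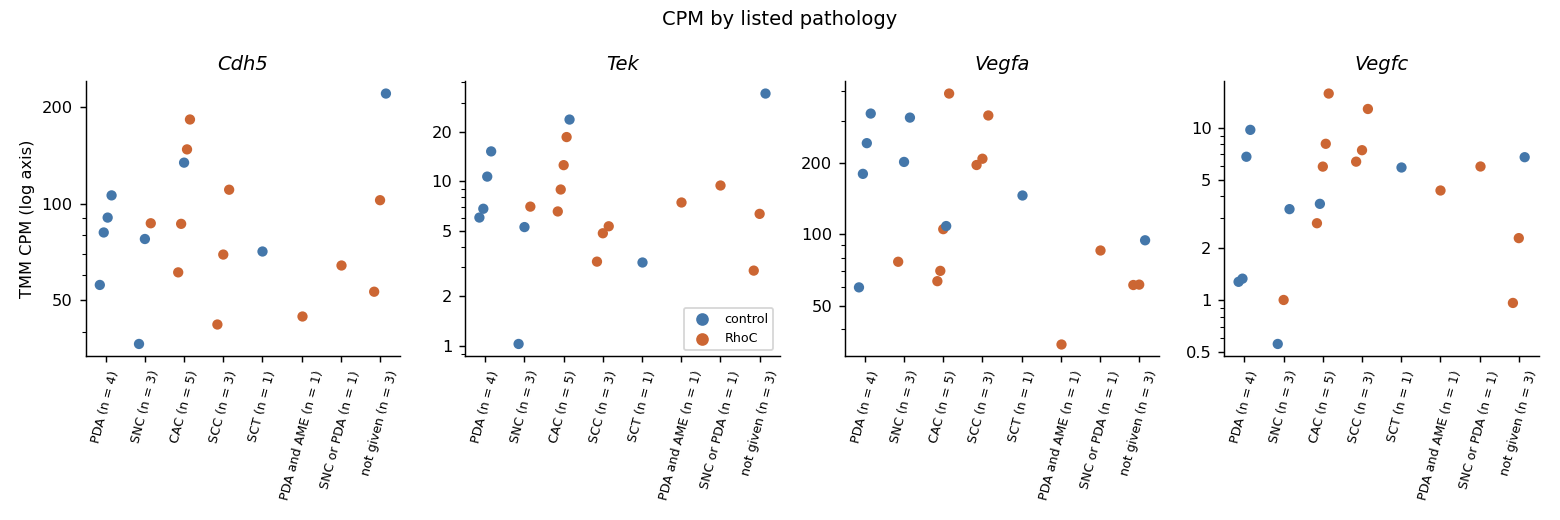
CPM on log axes of Cdh5, Tek, Vegfa and Vegfc by listed pathology, with 1 point per tumor, control in blue and RhoC in orange. PDA is poorly differentiated adenocarcinoma, SNC solid nodular carcinoma, CAC complex adenocarcinoma, SCC squamous cell carcinoma, SCT spindle cell tumor and AME adenomyoepithelioma. The 3 SCC, from mice P497 and N9255, lie at 195 CPM of Vegfa or more with Tek at 5.33 CPM or less. The 5 CAC hold Tek from 6.55 to 23.7 CPM.

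Tumors of a single mouse also differed. The 2 tumors of mouse N9255 were within 1.52-fold of each other for Pecam1, Cdh5, Flt1, Eng and Vwf, and differed 2.09-fold in Kdr and 2.02-fold in Tek. The squamous R-6 held 315 CPM of Vegfa and 12.8 CPM of Vegfc where R-7, a complex adenocarcinoma, held 70.3 and 2.79 CPM, and Angpt2 differed 2.50-fold. Among the 4 tumors of mouse P497, Angpt2 varied most, 5.15-fold, from 2.97 CPM in R-15 to 15.3 CPM in R-13. Tek varied 2.59-fold, Vwf 2.49-fold and Vegfa 2.40-fold, and Pecam1, Cdh5, Kdr, Flt1 and Eng between 1.42-fold and 1.85-fold. Vegfc varied least, 1.34-fold. Vegfa ran from 86.4 CPM in R-15 to 208 CPM in R-13, so the same tumors were lowest and highest for Vegfa and Angpt2.

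The 2 controls without the Gata4 loxP allele, N-15 and N-17, both lay below the 7 Gata4(loxP/+) controls in Vegfa, at 60.0 and 94.5 CPM against at least 108 CPM. N-15 also had the least Angpt2 of the controls (3.64 CPM), and N-17 the most Pecam1, Cdh5, Kdr, Tek, Eng and Vwf. With the 7 Gata4(loxP/+) controls alone, 0 of the 10 genes were called and 0 had an unadjusted p under 0.05 in edgeR.

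Reads on most of these genes could not be shared with a neighbour. By GENCODE M21 on GRCm38, 9 of the 10 shared no exonic base with another gene. Eng shared 61 of its 4048 exonic bases (1.51%). Angpt2 lies within Mcph1 on the opposite strand and Cdh5 overlaps the antisense gene Gm29682, in both cases without shared exons.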

How the data were processed

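Total RNA of 21 tumors was sequenced after ribosomal depletion. Per the labels and the study's methods, the authors trimmed reads with Trim Galore 0.5.0, aligned them to GRCm38.p6 with STAR 2.6.0c and counted them with htseq-count 0.6.1p2. The deposited counts are raw reads per gene, with reads on more than 1 gene discarded; whether strand was used is not given in the sources used here. The FPKM values were deposited by the authors and equal the count divided by gene length and a size factor. The deposited tables also hold the authors' own fold changes and p-values, which were not used.

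Cohorts came from the labels. The label of R-21 names mouse Q3738, which the study's tumor list gives to another RhoC tumor, and the label of R-18 names no mouse, so it was taken as its own. The members and lists were chosen with earlier results of these data known. Named genes are the 10 members, the 2 genes per list and direction with the smallest p (mean log2 CPM over 0), and the 10 nearest genes by rho.

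Tests used R 4.3.3 with edgeR 4.0.16 (TMM, filterByExpr, quasi-likelihood), Benjamini-Hochberg adjusted over all 19315 genes, and Python 3.11.15 with scipy 1.17.1. SE is the log2 fold change over the square root of F. Log2 CPM used a prior count of 2. Alternatives were DESeq2 1.42.0, limma 3.58.1 (voom, mouse as a random effect), other scalings and filters, counts summed per mouse, subsets of tumors and each tumor left out. The steps were tested on simulated data for the RhoC and control cohorts, 19315 genes with 200 changed. Of 50 genes each, 15 changed 2-fold, 12 changed 0.5-fold, 31 changed 4-fold and 35 changed 0.25-fold were called, with 1 unchanged gene. No 2 tumors had identical counts; the most alike (R-15 and R-16) had r = 0.971 in log2 CPM.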

Additional observations from a re-analysis of the deposited data

Results flagged for a closer look

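The log2 ratio of Kdr to the mean of Pecam1 and Cdh5 was 0.24 in control tumor N-17, apart from the other 8 controls, whose values lay between -1.04 and -0.40. Its gap to the nearest control was 0.499 of the control range, just past the limit of Dixon's test. The test was applied to 18 sets of 9 control tumors, of which 1 was past the limit, and chance gives about 1 in 20. N-17 also held the most skeletal muscle and adipocyte RNA (6209 and 1116 CPM), and the part of that tissue in the ratio was not tested.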

How the results depend on the processing

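None of the 10 genes and none of the 8 ratios was called under any alternative or with any tumor left out. The count over all genes moved, from 43 genes to 1206 with DESeq2, 438 with the Gata4(loxP/+) controls alone, 27 with library size in place of TMM, 26 without the squamous cell carcinomas, 19 without the spindle cell tumor, and 3 each with counts summed per mouse, with voom, or without mouse P497. It ranged from 14 without N-9 to 346 without N-15, and the cause was not tested. Small differences changed sign: Vwf was -0.019 by voom and -0.16 in mean log2 CPM, and Cdh5 0.038 with the Gata4(loxP/+) controls alone. With a tumor left out, the log2 fold change of Pecam1 ran from -0.34 to 0.075, of Cdh5 from -0.30 to 0.10, of Eng from -0.001 to 0.47 and of Vwf from -0.058 to 0.51, and the ratio of Tek from -0.30 to 0.027 and of Vwf from -0.32 to 0.17. The ratio of Vwf was 0.17 when averaged per mouse. Pairs passing by both correlation measures fell from 10 to 5 without mouse P7972, and stayed at 10 over the 21 tumors.

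Labels share the replicate numbers 1, 6, 7 and 15 between cohorts, but deviations of same-numbered tumors had correlations of -0.237, -0.185, -0.003 and 0.022, so the samples share only a number. With a replicate block on these 8 tumors 0 genes were called, Tek stood at 0.054 and Vegfc at -0.067. Without the block on the same 8 tumors 0 genes were called and Kdr stood at 0.025. Flt1 stood at -0.067 with the block and -0.042 without it. Angpt2 stood at -1.19 with the block (edgeR unadjusted p = 0.062, adjusted p = 0.715). Without it Angpt2 stood at -1.35 (edgeR unadjusted p = 0.0469, adjusted p = 0.438). Tumors of a mouse are not independent, so p-values over tumors measure the spread between these tumors only. With this spread, most 2-fold changes in the simulated data were not called.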
